A study of Homo sapiens with 6 samples.

Results

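The 10 genes described here encode the writers and the readers of N6-methyladenosine (m6A) on RNA. They were chosen by symbol, after the transcript identifiers of the count files had been matched to GENCODE, and comprise 6 writers (METTL3, METTL14, WTAP, VIRMA, RBM15 and ZC3H13) and 4 readers (YTHDF1, YTHDF2, YTHDF3 and YTHDC1). Each gene was represented by 1 of the 37245 transcription units (TUs) analysed, and all 10 were found. The rule that chose them reads symbols and no measured value, although earlier results of these data were known when the list was made.

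The libraries came from K562 cells, a human chronic myelogenous leukemia line with erythroid features, grown without treatment. The series holds 2 groups, of 4 total RNA-seq libraries depleted of rRNA and 2 PRO-seq libraries. Per the study's methods, the cells of all libraries grew in the same flask. No other genotype, treatment or time was sampled, and every library shares the cell line, so spread between libraries is that of library preparation and sampling and not of separate cultures. PRO-seq sequences RNA still held by engaged polymerase and served as a measure of transcription, whereas RNA-seq measured the RNA present at steady state.

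m6A is laid down mainly during transcription by a complex in which METTL3 holds the catalytic site and METTL14 helps to bind the RNA. WTAP anchors this pair, and VIRMA, RBM15 and ZC3H13 help to place the complex on its targets or to keep it in the nucleus. Proteins with a YTH domain bind the mark: the YTHDF proteins act mostly in the cytoplasm, where YTHDF2 recruits deadenylases that speed the loss of marked RNA, and YTHDC1 acts in the nucleus on splicing and export.

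The cells and libraries were examined first. Of the K562 markers, the 7 reported here (GATA1, TAL1, KLF1, HBG1, HBG2, HBE1 and LMO2) exceeded 1 TPM in RNA-seq, with a summed level between 11290 and 12130 TPM per library. In PRO-seq HBE1 held 0 counts and HBG2 was at 0.221 TPM, against 3101 and 6280 TPM in RNA-seq. The other 5 were between 87.7 and 227 TPM in PRO-seq. HBG2 held 29 PRO-seq counts and HBG1 63, at 204.8 TPM, so the counted span of HBG2 was far longer. The low TPM of HBG2 thus depends on that span. Why HBE1 held 0 counts was not tested, and neither value is read as low transcription. Of 9 markers of T cells, B cells, fibroblasts, epithelium and liver, 3 exceeded 1 TPM (EPCAM at 119.7, CD3D at 108.8 and COL1A2 at 1.36), and their summed level was 227.5 to 233.5 TPM per library; none was at 0 counts over all libraries, and KRT5 was lowest at 0.0328. Counts on TUs ranged from 5732780 to 9002746 per RNA-seq library and were 6993816 and 7245632 for PRO-seq. RNA-seq replicates 1 and 3 were close to each other, as were replicates 2 and 4, with chi-square per degree of freedom of 1.11 and 1.12, against 1.74 to 2.11 for the other RNA-seq pairs and 1.61 for the PRO-seq pair. Each close pair still differed beyond counting noise, if only slightly, and the 4 libraries were counted as 4 samples. They may act as 2 pairs, so a fit with each close pair summed is given below.

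The upstream sequences of 4 members are shown because these genes stood at the ends of the 2 scales used below. METTL3 and YTHDF1 had the highest and the lowest ratio of RNA to transcription, and YTHDF2 and METTL14 had the highest and the lowest PRO-seq level. Each sequence holds the 250 bases before the RefSeq start (GRCh38.p14), 5′ to 3′ on the strand of the gene, with capitals for matches to 1 of 4 motifs on either strand. The motif of NF-Y was CCAAT. That of the SP factors was GGGCGG. For the ETS factors CCGGAAGT was searched, and for a TATA box the letters were TATAAA. The windows are chr14:21511341-21511590 on the minus strand for METTL3, chr20:63216132-63216381 on the minus strand for YTHDF1, chr1:28736374-28736623 on the plus strand for YTHDF2 and chr4:118685142-118685391 on the plus strand for METTL14.
METTL3: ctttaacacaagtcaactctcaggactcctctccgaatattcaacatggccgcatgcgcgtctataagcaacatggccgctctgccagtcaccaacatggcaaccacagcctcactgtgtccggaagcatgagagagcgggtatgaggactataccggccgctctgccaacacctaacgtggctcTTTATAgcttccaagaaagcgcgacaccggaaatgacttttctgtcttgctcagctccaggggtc
YTHDF1: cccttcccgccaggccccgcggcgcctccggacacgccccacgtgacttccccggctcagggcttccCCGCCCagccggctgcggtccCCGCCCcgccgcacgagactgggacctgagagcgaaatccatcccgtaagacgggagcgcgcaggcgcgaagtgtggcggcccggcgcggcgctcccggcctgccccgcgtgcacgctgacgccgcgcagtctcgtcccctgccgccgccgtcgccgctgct
YTHDF2: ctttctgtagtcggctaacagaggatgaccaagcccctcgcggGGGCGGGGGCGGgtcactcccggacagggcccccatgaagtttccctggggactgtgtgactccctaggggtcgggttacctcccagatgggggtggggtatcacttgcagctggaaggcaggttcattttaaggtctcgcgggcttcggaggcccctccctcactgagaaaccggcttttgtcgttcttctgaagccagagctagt
METTL14: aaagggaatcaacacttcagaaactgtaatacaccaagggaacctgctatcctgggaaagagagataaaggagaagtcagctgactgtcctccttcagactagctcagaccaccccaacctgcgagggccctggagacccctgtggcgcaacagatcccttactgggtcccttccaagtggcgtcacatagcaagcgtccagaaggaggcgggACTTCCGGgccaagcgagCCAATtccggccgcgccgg

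RefSeq promoters were matched for 8 of the 10 members, all but VIRMA and YTHDF3. CCAAT was found in 4 of the 8 windows (METTL14, RBM15, WTAP and ZC3H13, of the 5 writers matched), against 32% of 35114 promoter windows of the same length. RBM15 alone held 4 copies. GGGCGG was found in 5 of 8 (RBM15, WTAP, YTHDC1, YTHDF1 and YTHDF2), against 42.6%, and no test was run over so few genes. CCGGAAGT occurred only in METTL14 (3.42% of all windows) and TATAAA only in METTL3, on the reverse strand and 65 bases before the start (10.7% of all windows). The motifs of NRF1 and YY1 were in none of the 8 and in 1.03% and 0.248% of all windows. The window of YTHDF1 was the richest in CpG, with 40 CpG dinucleotides and 77.6% GC, against medians of 11 and 58% over all windows. A match is only a run of letters, and binding was not measured. The counted transcript of WTAP starts at -1532 bp relative to its RefSeq start, so its window lies inside the counted transcript.

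The members had a median span of 31.9 kb and a median exonic length of 4366 bp, against 29.5 kb and 3056 bp over the tested mRNAs. Spans ran from 7.3 kb (RBM15, with 3 exons) to 98.3 kb (ZC3H13, with 19 exons), and exons made up between 8.16% (ZC3H13) and 46.2% (RBM15) of the span. RNA-seq was counted over exons and PRO-seq over the whole span less 500 bp at each end, and both were turned into TPM, a count per length scaled to the same total in each assay. In GRCh38, METTL3 (ENST00000298717) lies on chromosome 14 at 21498138 to 21511340 on the minus strand, METTL14 (ENST00000388822) on chromosome 4 at 118685392 to 118715430 on the plus strand, and WTAP (ENST00000358372) on chromosome 6 at 159725585 to 159756319 on the plus strand. RBM15 (ENST00000369784) lies on chromosome 1 at 110339377 to 110346677 on the plus strand and ZC3H13 (ENST00000242848) on chromosome 13 at 45954465 to 46052746 on the minus strand. Of the readers, YTHDF1 (ENST00000370339) lies on chromosome 20 at 63195429 to 63216131 on the minus strand, YTHDF2 (ENST00000542507) on chromosome 1 at 28736621 to 28769774 on the plus strand and YTHDC1 (ENST00000344157) on chromosome 4 at 68310387 to 68350090 on the minus strand. VIRMA (ENST00000297591) and YTHDF3 (ENST00000617200) are both on chromosome 8, at 94487689 to 94553469 on the minus strand and at 63168553 to 63212785 on the plus strand.

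**Figure D1:**
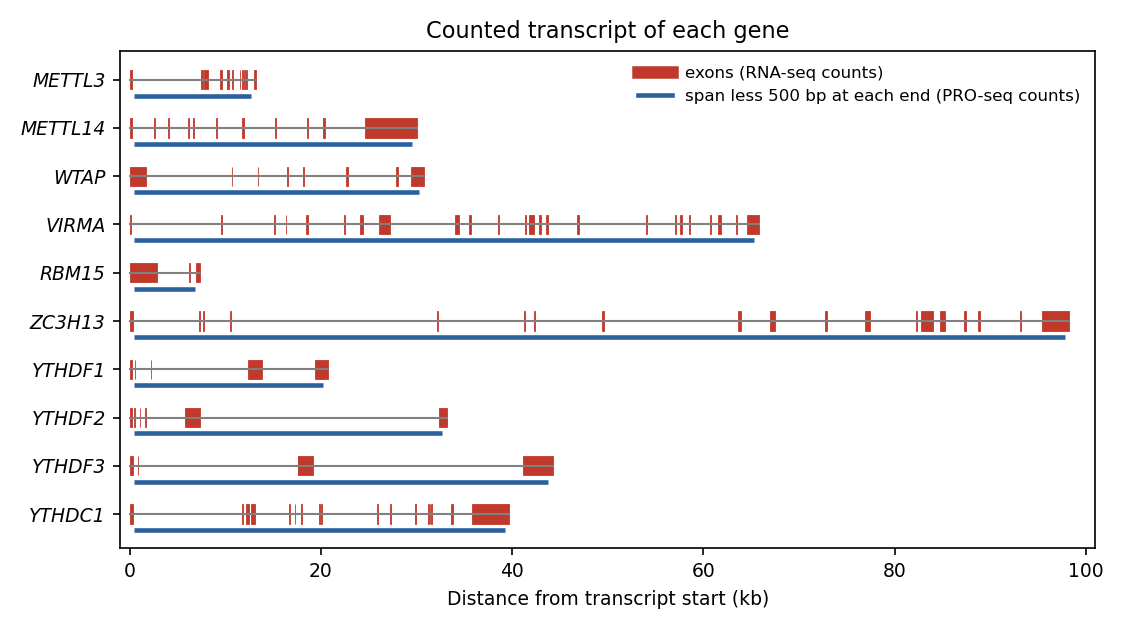
Exons (red boxes) of the counted transcript of each member, drawn to scale along the distance in kb from the transcript start, with the stretch used for PRO-seq counts (blue line, the span less 500 bp at each end). RBM15 spans 7.3 kb and ZC3H13 98.3 kb, while METTL14, ZC3H13, YTHDF3 and YTHDC1 end in long last exons.

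All 10 members were transcribed and present as RNA in every library. In RNA-seq the summed level ran from 14.6 TPM (ZC3H13) to 118 TPM (YTHDF2), with a median of 53.3 against 31.2 over 8733 tested mRNAs. In PRO-seq it ran from 31.7 TPM (METTL14) to 168 TPM (YTHDF2), with a median of 90.8 against 47.5. The order in RNA-seq was YTHDF2, METTL3, WTAP, RBM15, VIRMA, YTHDC1, YTHDF3, YTHDF1, METTL14 and ZC3H13. Neighbours whose library values overlapped were YTHDF2 with METTL3, METTL3 with WTAP, and YTHDF3 with YTHDF1. The order in PRO-seq was YTHDF2, RBM15, WTAP, YTHDF1, METTL3, YTHDC1, VIRMA, YTHDF3, ZC3H13 and METTL14, where only YTHDF2 with RBM15 and YTHDF1 with METTL3 overlapped. RBM15 and YTHDF1 were therefore among the most transcribed members and stood lower in the order of RNA, while METTL3 and VIRMA stood higher in RNA than in transcription.

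**Figure D2:**
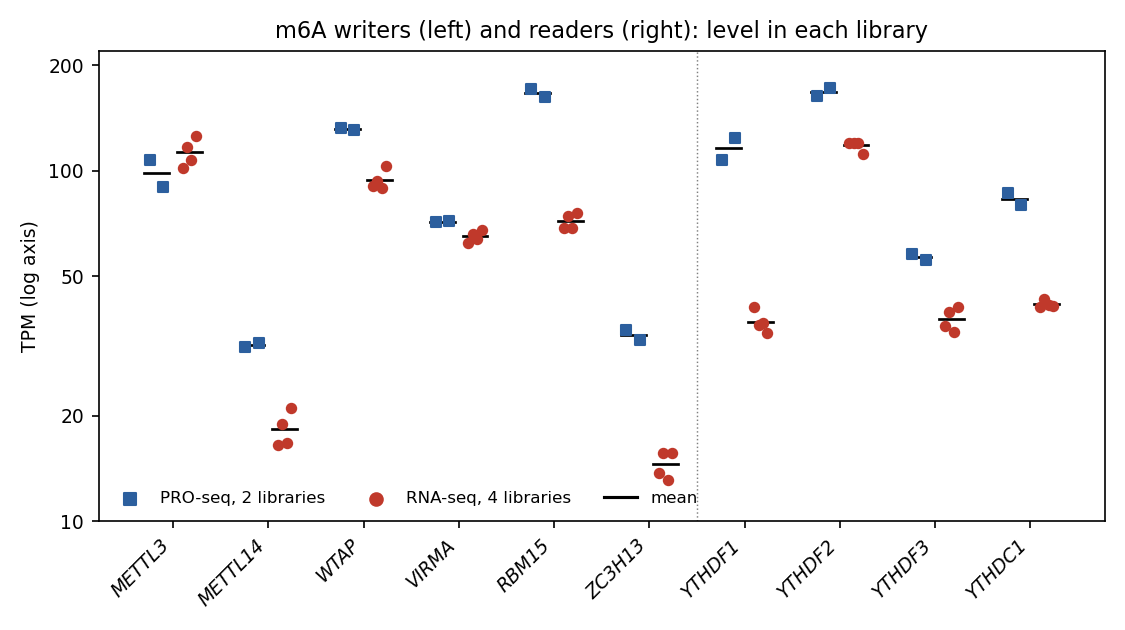
TPM (log axis) of each member in the 2 PRO-seq libraries (blue squares) and the 4 RNA-seq libraries (red circles), with black lines for the means. METTL3 and VIRMA have RNA-seq means close to their PRO-seq means, while in YTHDF1 the highest RNA-seq value (40.7) lies far below the lowest PRO-seq value (107).

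The ratio of RNA-seq TPM to PRO-seq TPM is proportional to the half-life of an RNA if production and decay are in balance and PRO-seq follows production. It is called half-life below, has no unit, and was set against the median of the tested mRNAs, 0.645. Per the study, PRO-seq also depends on elongation rate, with effects that it judged limited, and no correction was made here. The study also found half-lives from these libraries more variable, and farther from published estimates, than those from the earlier data it focused on. Tested TUs had RNA-seq above 1 TPM and PRO-seq above 10 TPM, which all 10 members passed. Of the 10 members, 4 lay above the median mRNA (METTL3, VIRMA, WTAP and YTHDF2), 4 lay below it (YTHDF1, ZC3H13, RBM15 and YTHDC1), and METTL14 and YTHDF3 were not called, at an adjusted p under 0.05 (edgeR, quasi-likelihood, Benjamini-Hochberg adjustment over all TUs tested). This has to be read against the background: the same test called 90.4% of 10052 TUs (39.9% above and 50.5% below), and 90.3% of the mRNAs. The share called among the members was 80%, near that background, so being called says little about these genes, and the sizes are what is described.

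The sizes were small. All 10 lay between percentiles 26.2 and 69.8 of the tested mRNAs, and the SD of their log2 half-lives was 0.548, against 1.68 over all tested mRNAs. Of the members, 9 were within 2-fold of the median mRNA, which held for 47.1% of the mRNAs, while 52.8% of the mRNAs were farther away; YTHDF1 was at the 2-fold line. When edgeR's glmTreat asked for a difference of more than 2-fold, 0 of the 10 members passed, against 51.1% of all TUs tested, and 0 of 10 had an unadjusted p under 0.05 in that test, where YTHDF1 had the lowest adjusted p, 0.404. A centre common to all members moved them alike: with the thresholds dropped the centre was lower by 0.63 on the log2 scale, and 7 members then lay above it and 1 below. Against the mRNAs with PRO-seq TPM within 1 log2 unit of each member, a centre that differs by gene, RBM15 was at -0.49, ZC3H13 at -0.62 and YTHDF2 at 0.22, with no test.

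**Figure D3:**
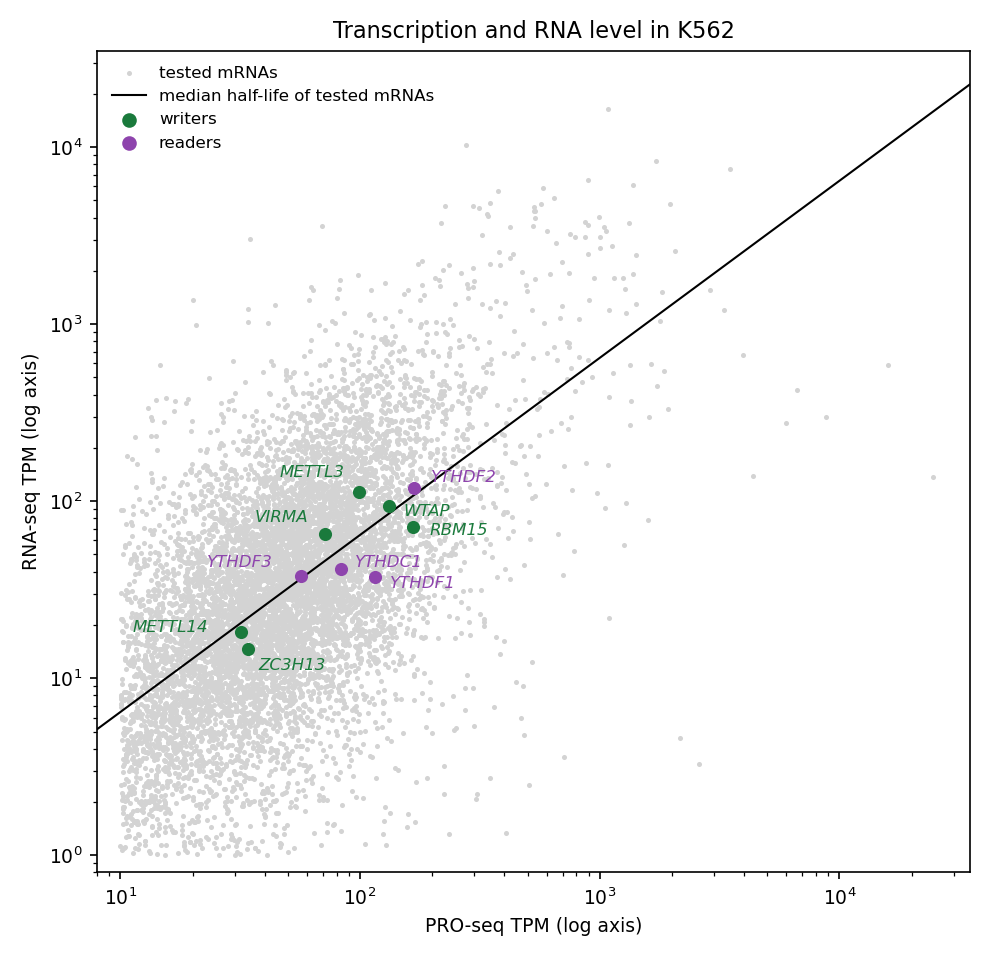
RNA-seq TPM against PRO-seq TPM (both log axes, counts summed over libraries) for the 8733 tested mRNAs (grey), the writers (green) and the readers (purple), with a line at the median half-life of 0.645. METTL3 and VIRMA lie above the line, YTHDF1, RBM15, ZC3H13 and YTHDC1 below it, and the other 4 members close to it.

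METTL3 and METTL14 form the catalytic heterodimer, and they differed both in level and in half-life. METTL3 was at 102, 117, 108 and 126 TPM in RNA-seq replicates 1 to 4 and at 107 and 90.1 TPM in the PRO-seq replicates. METTL14 was at 16.4, 18.9, 16.8 and 21 TPM in RNA-seq and at 31.3 and 32.1 TPM in PRO-seq. The libraries of METTL3 and METTL14 did not overlap in either assay. RNA of METTL3 was 6.18-fold that of METTL14 (between 5.99 and 6.42-fold within the 4 libraries), and transcription was 3.11-fold (2.81 and 3.43-fold). The half-life of METTL3 was 1.14, the highest of the members, at a log2 difference from the median mRNA of 0.83 ± 0.084 (SE, adjusted p = 1.7e-10 in edgeR). That of METTL14 was 0.575, at -0.16 ± 0.094 (adjusted p = 0.1 in edgeR). Their difference in log2 half-life was 0.99 ± 0.13 (SE combined from both fits), with METTL3 higher in 8 of 8 combinations of an RNA-seq and a PRO-seq library. The PRO-seq libraries of METTL3 differed by 17.5% of their mean, and its relative log2 half-life was 0.97 without PRO-seq replicate 1 and 0.69 without replicate 2.

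WTAP, the regulatory subunit that holds METTL3 and METTL14 in nuclear speckles, was the writer with the second highest RNA level. Its RNA-seq values were 90.3, 93.7, 89.5 and 103 TPM and its PRO-seq values 133 and 131 TPM. The half-life was 0.713, at a log2 difference from the median mRNA of 0.15 ± 0.054 (SE, adjusted p = 0.013 in edgeR). This small difference did not hold in every set of libraries: the adjusted p was 0.065 without RNA-seq replicate 4, 0.12 without PRO-seq replicate 2 and 0.13 without RNA-seq replicates 2 and 4, in a range from 5.4e-46 to 1 over all alternatives. The counted transcript of WTAP starts at -1532 bp relative to its RefSeq start, and its first exon holds 1749 of 3656 exonic bp. RNA that starts at the RefSeq site would cover less of that length. The RNA level, half-life, call and rank of WTAP may thus be understated, which was not tested. VIRMA, the large scaffold of the complex, was at 62.3, 66.1, 63.7 and 67.7 TPM in RNA-seq and at 71.2 and 71.8 TPM in PRO-seq. The 2 assays thus gave nearly equal TPM for VIRMA, and its PRO-seq libraries were the closest of all members. Its half-life was 0.908, at 0.50 ± 0.048 (adjusted p = 5.5e-11 in edgeR). WTAP was below VIRMA in half-life in 8 of 8 combinations, by a log2 difference of -0.35 ± 0.072, while its RNA was 1.45-fold and its transcription 1.84-fold that of VIRMA.

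RBM15 and ZC3H13 had the lowest half-lives of the writers and very different levels. RBM15, which binds RNA and guides the complex to some of its targets, was at 68.6, 74.1, 68.8 and 75.7 TPM in RNA-seq and at 171 and 163 TPM in PRO-seq. ZC3H13, a zinc finger protein needed to keep the complex in the nucleus, was at 13.7, 15.7, 13.1 and 15.7 TPM in RNA-seq and at 35 and 32.8 TPM in PRO-seq. Every PRO-seq value was above every RNA-seq value in both genes, as in every member but METTL3. The median half-life over the tested mRNAs was 0.645, so a higher PRO-seq TPM is usual. RBM15 exceeded ZC3H13 by 4.92-fold in RNA and by 4.91-fold in transcription. Their half-lives were 0.432 and 0.431, at log2 differences from the median mRNA of -0.58 ± 0.077 (SE, adjusted p = 4.7e-08 in edgeR) and -0.58 ± 0.067 (adjusted p = 3e-09 in edgeR). The difference between them was 0.0046 ± 0.1, with RBM15 higher in 4 of 8 combinations and lower in 4, over a range from -0.065 to 0.11.

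YTHDF1, YTHDF2 and YTHDF3 are close paralogues, and their levels were set apart in different ways. YTHDF2 was at 120.3, 120.2, 120.2 and 112 TPM in RNA-seq and at 163 and 173 TPM in PRO-seq. YTHDF1 was at 40.7, 36.2, 36.8 and 34.4 TPM in RNA-seq and at 107 and 124 TPM in PRO-seq. YTHDF3 was at 36.1, 39.5, 34.7 and 40.8 TPM in RNA-seq and at 57.7 and 55.5 TPM in PRO-seq. YTHDF1 and YTHDF3 thus overlapped in RNA, at a ratio of 1.02 for YTHDF3 over YTHDF1, but not in transcription, where the ratio was 0.488. YTHDF2 was above both in both assays, at 3.18-fold the RNA of YTHDF1 and 3.12-fold that of YTHDF3.

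YTHDF1 had the lowest half-life of the members, 0.321, at a log2 difference from the median mRNA of -1.01 ± 0.073 (SE, adjusted p = 8.4e-14 in edgeR). YTHDF2 was at 0.705 and 0.13 ± 0.049 (adjusted p = 0.015 in edgeR). YTHDF3 was at 0.67 and 0.05 ± 0.065 (adjusted p = 0.43 in edgeR). YTHDF1 was below YTHDF2 and YTHDF3 in all 8 combinations, with YTHDF2 higher by 1.13 ± 0.088 and YTHDF3 by 1.06 ± 0.098 on the log2 scale. YTHDF2 and YTHDF3 differed by 0.074 ± 0.081, with YTHDF2 higher in 5 of 8 combinations. The adjusted p of YTHDF2 against the median mRNA was 0.11 without PRO-seq replicate 1 and 0.079 without RNA-seq replicates 1 and 3, in a range from 9.6e-48 to 1 over all alternatives. In RNA-seq replicate 4 YTHDF2 stood below the other libraries, which lay between 120.2 and 120.3 TPM.

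YTHDC1, the nuclear reader, was the member with the steadiest RNA level, with a coefficient of variation of 2.29% over the 4 libraries. It was at 40.8, 42.9, 41.2 and 41.1 TPM in RNA-seq and at 86.1 and 79.9 TPM in PRO-seq. The half-life was 0.501, at a log2 difference from the median mRNA of -0.36 ± 0.055 (SE, adjusted p = 4.9e-07 in edgeR). As groups, writers and readers were spread over much of the same range. The median log2 difference from the median mRNA was -0.01 for the writers (from -0.58 to 0.83) and -0.15 for the readers (from -1.01 to 0.13), with SDs over the 8 library combinations of 0.11 and 0.067.

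The order of half-lives was METTL3, VIRMA, WTAP, YTHDF2, YTHDF3, METTL14, YTHDC1, RBM15, ZC3H13 and YTHDF1. Compared within each of the 8 combinations, METTL3 was above VIRMA, VIRMA above WTAP, YTHDF3 above METTL14, METTL14 above YTHDC1, YTHDC1 above RBM15 and ZC3H13 above YTHDF1 in 8 of 8. ZC3H13 and YTHDF1 differed by 0.42 ± 0.099 on the log2 scale (SE combined from both fits). The differences were smaller for YTHDF3 and METTL14 (0.22 ± 0.11), YTHDC1 and RBM15 (0.22 ± 0.095), and METTL14 and YTHDC1 (0.20 ± 0.11, with a lowest value of 0.002 over the combinations). WTAP was above YTHDF2 in 3 of 8 combinations, YTHDF2 above YTHDF3 in 5 and RBM15 above ZC3H13 in 4. The order within these pairs was not settled beyond their spread. The combinations reuse the same libraries and are not independent, so 8 of 8 alone does not settle an order either.

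**Figure D4:**
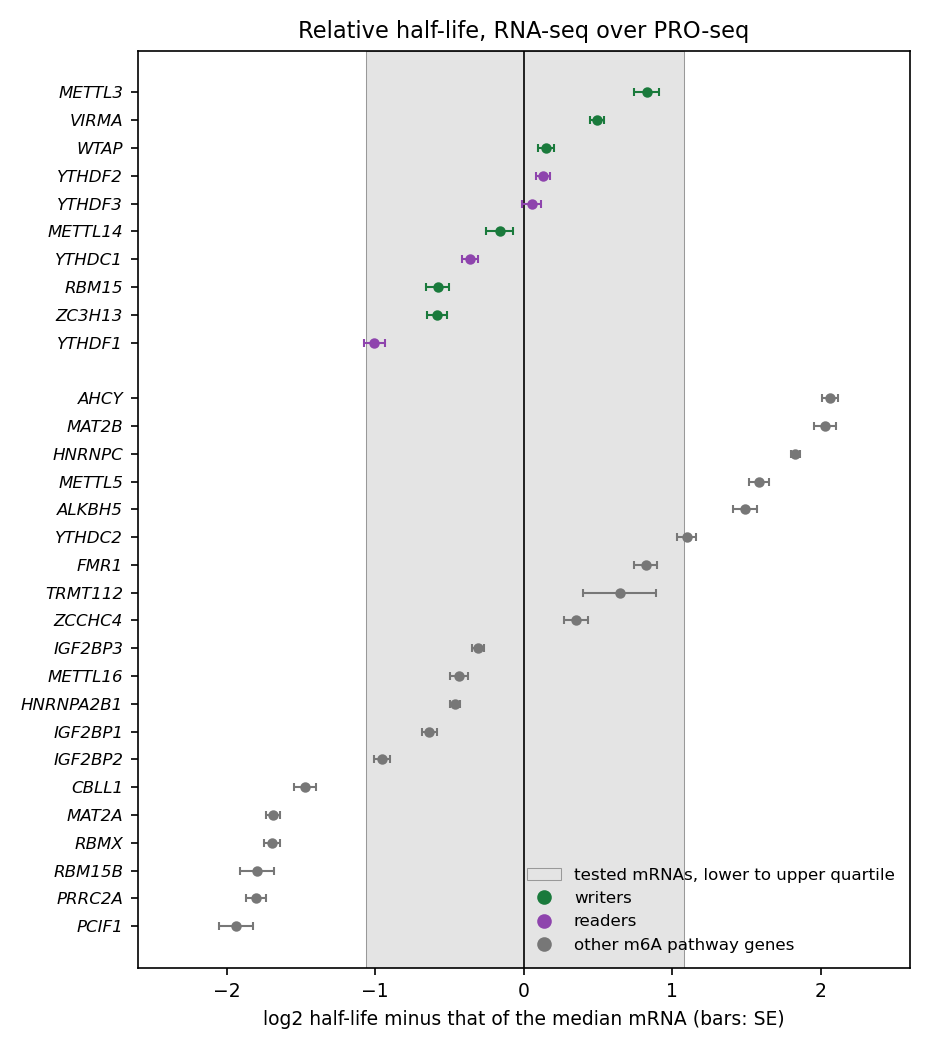
Log2 half-life minus that of the median mRNA, with SE bars from edgeR, for the writers (green), the readers (purple) and 20 other genes of the m6A pathway (grey), over the band from the lower to the upper quartile of the tested mRNAs (grey, -1.06 to 1.08). All 10 members fall within the band, from -1.01 (YTHDF1) to 0.83 (METTL3), while 12 of the other genes fall outside it.

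The 4 RNA-seq libraries were not interchangeable for these genes. For all 6 writers and YTHDF3, RNA-seq replicates 2 and 4 were both above replicates 1 and 3, which held for 26.1% of the tested mRNAs. For YTHDF1 and YTHDF2 replicates 2 and 4 were both below, which held for 22.2% of the tested mRNAs, and YTHDC1 did neither. In YTHDF2 replicate 2 was below replicate 3 only beyond the digits shown (both 120.2 TPM). The mean of replicates 2 and 4 differed from that of 1 and 3 by 20.1% in METTL14, 16.9% in ZC3H13 and 15.6% in METTL3, and by -8.95% in YTHDF1. No label tells these libraries apart. Records in no feature were 29.9% and 29.6% in replicates 1 and 3 against 32.3% and 32.4% in 2 and 4, and records aligned to several places were 28% and 27.9% against 24.9% and 24.5%; the part of these shares in the members' levels was not tested. The half-lives were therefore also computed with pairs left out. Without replicates 2 and 4 the log2 difference from the median mRNA was 0.72 for METTL3 and -0.93 for YTHDF1, and without replicates 1 and 3 it was 0.92 and -1.08. METTL14, WTAP and YTHDF2 changed call with a pair left out, WTAP and YTHDF2 with the adjusted p-values given above. METTL14 was at -0.29 (adjusted p = 0.0026 in edgeR) without replicates 2 and 4, and at -0.05 (adjusted p = 0.59 in edgeR) without replicates 1 and 3, in a range from 1.5e-07 to 1 over all alternatives. Without RNA-seq replicate 4 alone METTL14 was at -0.23 (adjusted p = 0.018 in edgeR).

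**Figure D5:**
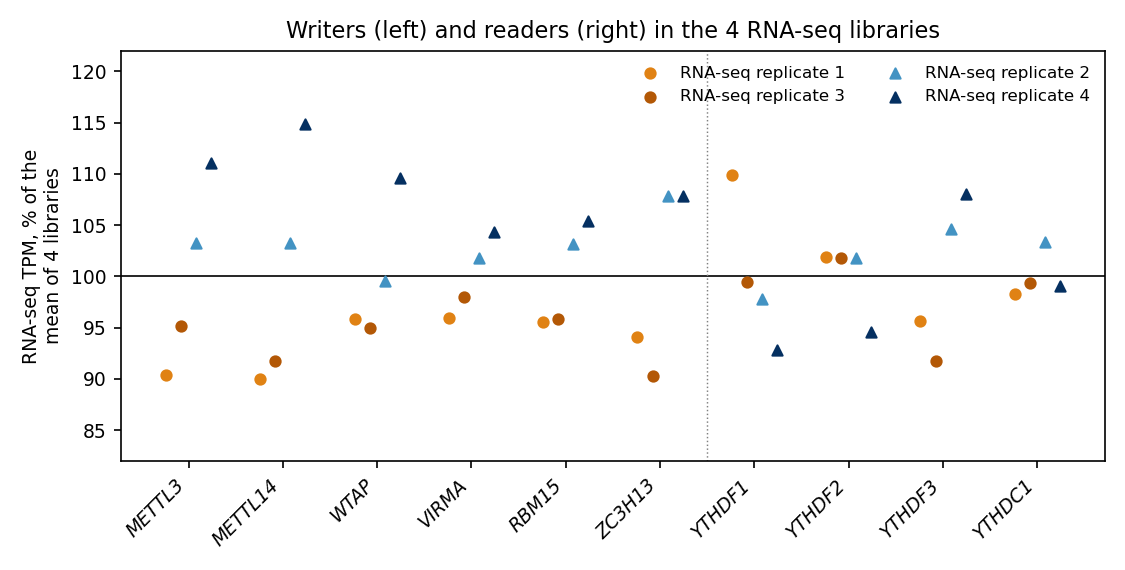
RNA-seq TPM of each member in each library as a percent of its mean over the 4 libraries, with circles for replicates 1 and 3 and triangles for replicates 2 and 4. The triangles lie above the circles in the 6 writers and YTHDF3, by up to 20.1% in METTL14, and below them in YTHDF1 and YTHDF2.

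Neighbouring TUs bear on what was counted for several members. TOX4 overlaps METTL3 on the opposite strand over 1038 bp, including 345 bp of exon or 17.4% of the exonic length of METTL3. TOX4 held 1653 RNA-seq and 356 PRO-seq counts in its own right. WTAP lies wholly within a SOD2 transcript of the opposite strand, which held 1333 RNA-seq and 387 PRO-seq counts, and no exons overlap. The strand setting of HTSeq is not stated in the sources used here, so reads of opposite TUs may not be told apart. WTAP still held 2048 PRO-seq counts, and of 5014 TUs that lie wholly within a TU of the other strand, 21.8% held at least 10 PRO-seq counts. Of 157 TUs whose exons all lie inside exons of a TU of the other strand, 12.1% held at least 10 RNA-seq counts. Divergent TUs were transcribed beside 3 writers and left little RNA. RBM15-AS1, which starts 206 bp from RBM15, held 349 PRO-seq and 50 RNA-seq counts, at a log2 difference from the median mRNA of -2.56 ± 0.19 (SE, adjusted p = 1.5e-13 in edgeR). VIRMA-DT, starting 253 bp from VIRMA, held 132 PRO-seq and 15 RNA-seq counts, and METTL14-DT, starting 926 bp from METTL14, held 44 and 4. Pseudogenes can share reads with their parent genes. Few counts were on them: YTHDF2P1 had 37 RNA-seq counts, or 0.813% of those of YTHDF2, YTHDF1P1 had 4, and WTAPP1 had 8 PRO-seq counts only. Records aligned to several places named no TU, so these counts do not tell how many reads were shared.

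Each value also rests on 1 counted transcript. It held 33.8% of the annotated exonic bases in METTL3, which has 14 annotated transcripts, 57% in WTAP and 60.1% in VIRMA, but 99.8% in YTHDF1 and 97.1% in METTL14. RNA from exons outside the counted transcript does not enter the RNA-seq level, and its size was not measured here. The METTL3 transcript was the shortest, at 1980 nt, and held 2.02 copies per kb of GGACT (with U for T in the RNA), a core form of the m6A motif, which put it at percentile 90.6 of the tested mRNAs. YTHDF1 was the lowest, with 1 copy in 3198 nt (0.313 per kb, percentile 13.6), and the median mRNA had 0.925 per kb. METTL3 and YTHDF1 were also the members with the highest and the lowest half-life. Between them the 2 orders matched only in part. VIRMA held 1.54 per kb and came next after METTL3 in both. YTHDF3 held 0.394 per kb and lay near the median mRNA in half-life, and METTL14 held 1.20 per kb and lay below YTHDF3. Whether density and half-life are linked was not tested. A copy of the motif is not a methylated site, and 89.7% of the mRNAs held at least 1.

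Other genes of the m6A pathway ranged from -1.94 to 2.06 in log2 half-life relative to the median mRNA. Of 21 such genes listed, 20 passed the thresholds. All 20 were called, 9 above the median mRNA and 11 below it, where 90.4% of all tested TUs were called (39.9% above and 50.5% below). Their median log2 difference was -0.37, against 0 for the tested mRNAs, by construction, and -0.24 over all tested TUs. Among the 20, TRMT112 rested on 25 PRO-seq counts over 100 bp, and RBMX was counted on a transcript without an annotated coding sequence. The highest were AHCY, which clears the S-adenosylhomocysteine left by methylation, at 2.06 ± 0.052, and MAT2B, a regulatory subunit of methionine adenosyltransferase, at 2.03 ± 0.074. The lowest were PCIF1, which methylates the adenosine beside the cap, at -1.94 ± 0.12, and PRRC2A, a reported reader, at -1.80 ± 0.065. MAT2A, the catalytic subunit that makes S-adenosylmethionine, was at 255, 281, 252 and 287 TPM in RNA-seq and at 1356 and 1331 TPM in PRO-seq, with a log2 difference of -1.69 ± 0.047. METTL16, a methyltransferase known to act on the MAT2A transcript, was at -0.44 ± 0.062. MAT2A and MAT2B, subunits of 1 enzyme, thus stood on opposite sides of the median mRNA.

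The demethylases were each measured with a limit. ALKBH5 was at 1.49 ± 0.079, but its counted transcript carries a coding sequence of only 162 bp. FTO, whose counted transcript spans 449 kb, was at 9.96 TPM in PRO-seq and so just missed the threshold, with 10.3 TPM in RNA-seq. Of the 9 other readers, 3 lay above the median mRNA (HNRNPC at 1.83 ± 0.032, YTHDC2 at 1.10 ± 0.064 and FMR1 at 0.82 ± 0.077) and 6 below it. Among the 6, IGF2BP1, IGF2BP2 and IGF2BP3 were at -0.64 ± 0.048, -0.96 ± 0.054 and -0.31 ± 0.042.

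The mRNAs with the most similar values to the extreme members were found by Euclidean distance in log2 TPM over the 6 libraries, among 8721 mRNAs. For METTL3 they were U2SURP (0.243), SS18 (0.272) and PSMD11 (0.299). For YTHDF1 they were ELAVL1 (0.208), ZNF124 (0.222) and SREBF1 (0.24). A like level and half-life follow from this choice, since the half-life is the ratio of the same TPM values. ELAVL1 was at 34.9 TPM in RNA-seq and 117 TPM in PRO-seq, with a half-life of 0.298. U2SURP was at 112 and 102 TPM, with a half-life of 1.10.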

How the data were processed

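The authors deposited raw read counts per transcript for each library, without normalization. Reads had been trimmed by Cutadapt, placed on GRCh38 by HISAT2 and counted by HTSeq on GENCODE, with versions and strand setting not given in the sources used. Rows that name no TU were left out, and took 66.5% to 68.6% of records in RNA-seq and 86.5% or 88.6% in PRO-seq. Of 42371 transcripts, 88.1% were matched by identifier to GENCODE (version 44), whose GRCh38 positions gave the lengths. The authors' release may differ.

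TPM used counts summed over libraries, exonic length for RNA-seq and span less 1000 bp for PRO-seq. Their ratio, RNA-seq to PRO-seq, is the half-life, taken where RNA-seq exceeded 1 TPM and PRO-seq 10 TPM. edgeR (version 4.0.16, R version 4.3.3) tested counts of all 10052 TUs with TMM normalization, length offsets, a quasi-likelihood fit and Benjamini-Hochberg adjustment, against the median mRNA. On simulated data with RNA-seq against PRO-seq it recovered 93.5% of 199 TUs changed by 1 log2 unit among 10040, with 6 false calls. There the libraries were independent and all other TUs shared 1 ratio. In the data 90.4% of TUs were called and RNA-seq libraries came in close pairs, so the false calls do not carry over. P-values measure spread between libraries of 1 flask, and reads carry no molecular identifiers. Alternatives covered filters, lengths, centres, DESeq2 (version 1.42.0), a replicate block, summed pairs of RNA-seq libraries and left-out libraries. Leaving out RNA-seq replicates 1 and 3 or 2 and 4 together was chosen after seeing the data.

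The members, the pathway list and the motifs were chosen with earlier results of these data known. Every member is named. Of the pathway genes, the 2 highest, the 2 lowest, MAT2A, FTO, ALKBH5, METTL16 and, chosen after their values were seen, HNRNPC, YTHDC2, FMR1 and IGF2BP1 to IGF2BP3 are named. TRMT112 and RBMX are named only for their limits, also after their values were seen. Of the K562 markers, 1 chosen with the others is not reported here.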

Additional observations from a re-analysis of the deposited data

Results flagged for a closer look

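One of the 10 members had an RNA-seq library far from the others. YTHDF2 was at 120.3, 120.2 and 120.2 TPM in RNA-seq replicates 1 to 3 and at 112 TPM in replicate 4, a gap of 0.987 of the whole range, above the 95% critical value of Dixon's test for 4 samples. Chance alone would mark about 1 in 20 genes. Without replicate 4 the log2 difference of YTHDF2 from the median mRNA was 0.15, against 0.13 with it. The cause was not tested.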

How the results depend on the processing

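Of 170 tests of members under alternatives, 143 kept direction and side of the threshold, 6 gained a call, 15 lost one and 6 turned direction. Of 20 values with no test, 1 moved by more than the spread between libraries. With no filter on low values 7 members were above and 1 below the median mRNA, the group medians were 0.62 for writers and 0.48 for readers, and METTL14 (0.47), RBM15 (0.0507), ZC3H13 (0.0459) and YTHDC1 (0.27) changed sign, RBM15 and ZC3H13 without a call. This alternative tests 21097 TUs, so its median mRNA lies lower by construction. With at least 10 summed counts the group medians were 0.11 and -0.0348, and against the median of all tested TUs they were 0.23 and 0.0902, with METTL14 at 0.0795, not called. YTHDF3, not called, was at -0.0299 without RNA-seq replicates 2 and 4. For a difference of more than 2-fold the counts were 0 and 0. Leaving out 1 library at a time gave 3 to 4 members above and 4 to 5 below, with group medians from -0.06 to 0.03 for writers and from -0.21 to -0.10 for readers. With RNA-seq replicates 1 and 3 summed, and 2 and 4 summed, 4 members were above and 4 below. The adjusted p of METTL3 was then 1.3e-08 in edgeR, against 1.7e-10 with the 4 libraries kept apart. Those of WTAP and YTHDF2 were 0.031 and 0.036 in edgeR. The log2 difference between RNA-seq replicates 1 and 2 did not follow that between PRO-seq replicates 1 and 2 (correlation -0.0068 over 9960 TUs). RNA-seq replicates 1 and 2 belong to different close pairs. Whether libraries with the same number share more than that number cannot be told from this value. With the replicate block, on replicates 1 and 2 only, 3 members were above and 5 below, with group medians of -0.05 and -0.15. METTL14 was then called at -0.21 and WTAP no longer at 0.12. With 500 bp removed for PRO-seq, YTHDF2 was at 0.10 with an adjusted p of 0.053 in edgeR. Against mRNAs of like PRO-seq TPM, and with mean log2 TPM, no test was run. No separate cultures were sampled, so differences between cultures are not covered, and PRO-seq counts of 481 (METTL14) to 2821 (YTHDF2) per member limit the precision.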
